A study of Anser cygnoides with 6 samples.

Results

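Collagen chains and the enzymes that modify, fold, trim and cross-link them were followed in the ovary of the swan goose, Anser cygnoides. Members were chosen by gene symbol: every collagen alpha chain, the lysyl oxidases (LOX, LOXL1 to LOXL4), the prolyl and lysyl hydroxylases (P4HA and PLOD genes), the collagen chaperone SERPINH1, the propeptidase BMP1 and its enhancers (PCOLCE, PCOLCE2). The deposited table held 55 such genes among 14696, under 54 symbols, because COL27A1 stood under 2 gene identifiers. They comprised 12 fibrillar, 6 basement membrane, 4 collagen VI, 9 FACIT and 12 other chains, and 12 enzymes or helpers. COL16A1, P4HA3, PLOD3 and PCOLCE were not analysed here.

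RNA-seq libraries had been made from 3 ovaries labelled broodiness (broody 1 to 3) and 3 labelled reproduction (reproductive 1 to 3). Broody birds no longer lay and turn to incubation. Per the labels' protocols all geese were kept to 40 weeks of age on a daily cycle of 11 h light to 13 h dark. The broody birds had in addition been put through forced moulting with short illumination. Moulting, short illumination and broodiness therefore cannot be told apart. Whether each library came from a bird of its own is not stated, so a p-value here reflects only the spread among these libraries, which may be technical.

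Collagens are trimers of alpha chains wound into a triple helix. In the cell, prolyl and lysyl residues are hydroxylated and SERPINH1 (HSP47) holds the helix together on its way out. Outside it, propeptides are removed, fibrillar collagens assemble into fibrils and lysyl oxidases cross-link them. In the bird ovary, fibrillar collagen fills the stroma and the thecal wall of the follicle, and collagen IV forms the sheet of basement membranes, including the one between granulosa and theca and those around vessels and smooth muscle cells.

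Values are FPKM (fragments per kilobase, scaled to the mapped fragments), summed over the transcripts of a gene, so levels of different genes are compared per length. Differences are broody minus reproductive on the log2(FPKM + 1) scale, with the standard error (SE), from limma fitted over 11377 genes, and adjusted p-values are Benjamini-Hochberg values over all of them, with a threshold of 0.05. Library sums lay between 319866 and 346625 FPKM. Oocyte markers summed to 1080 to 1282 FPKM in broody libraries and 133 to 608 FPKM in reproductive libraries, with 6 of 6 tested higher, or 5 with median-ratio scaling. Granulosa markers summed to 363 to 457 and 108 to 218 FPKM, with 2 of 4 tested higher. Of all genes, 29.9% were higher, or 16.7% with median-ratio scaling. The series' design text names oviduct where the labels name ovary. Of 8 oviduct epithelium markers 2 were found (TF and FOXJ1), summing to 19.3 to 24.9 FPKM in broody libraries and 14.3 to 74.4 FPKM in reproductive libraries. FOXJ1 was higher in broody libraries (adjusted p = 0.0457 by limma, and 0.0790 with median-ratio scaling), and TF reached 71.1 FPKM in reproductive 2 alone.

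Most of the abundant collagen transcripts were lower in the broody ovaries. Of the 55 members 43 had at least 1 FPKM in 3 or more of the 6 libraries and were tested. Of these, 21 were lower and 7 higher in broody libraries, while 15 did not pass the threshold. Among all genes tested, 12% were lower and 29.9% were higher. The differences of the 21 lower members lay between -2.91 and -0.64, with adjusted p between 0.0113 and 0.0394, and those of the higher members other than COL10A1 between 0.46 and 1.28, with adjusted p between 0.0168 and 0.0296. The median difference of the tested members was -0.64, against 0.23 over all genes tested. Median-ratio scaling, which brought the median of all genes to 0.00, gave -0.89 for the members, with 21 lower and 5 higher, where 18.8% and 16.7% of all genes were. COL10A1 passed the filter through the broody libraries alone, so its count among the higher members was set by the filter. COL22A1 had at least 1 FPKM in 3 broody libraries and 1 reproductive library, and PCOLCE2 in 1 and 3. These calls, 1 higher and 1 lower, thus leaned on the filter as well.

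All 28 calls ended without broody 1 or without broody 2, when 1 gene of the whole table passed in each case. The adjusted p of the same 28 genes then lay between 0.0508 and 0.116 without broody 1, and between 0.0651 and 0.112 without broody 2. At an unadjusted p under 0.05, 21 members were lower and 8 higher without broody 1, where 11.6% and 28.6% of all genes were, and 21 and 7 without broody 2, where 11.3% and 29.9% were. Without broody 3, 22 members were lower and 3 higher by adjusted p, where 9.48% and 16.9% of all genes were. The broody libraries lay wholly below the reproductive ones for 22 tested members and wholly above them for 9, where 18.2% and 41.3% of all genes did so. In these bulk samples fewer cells of a type and less RNA per cell cannot be told apart.

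**Figure D1:**
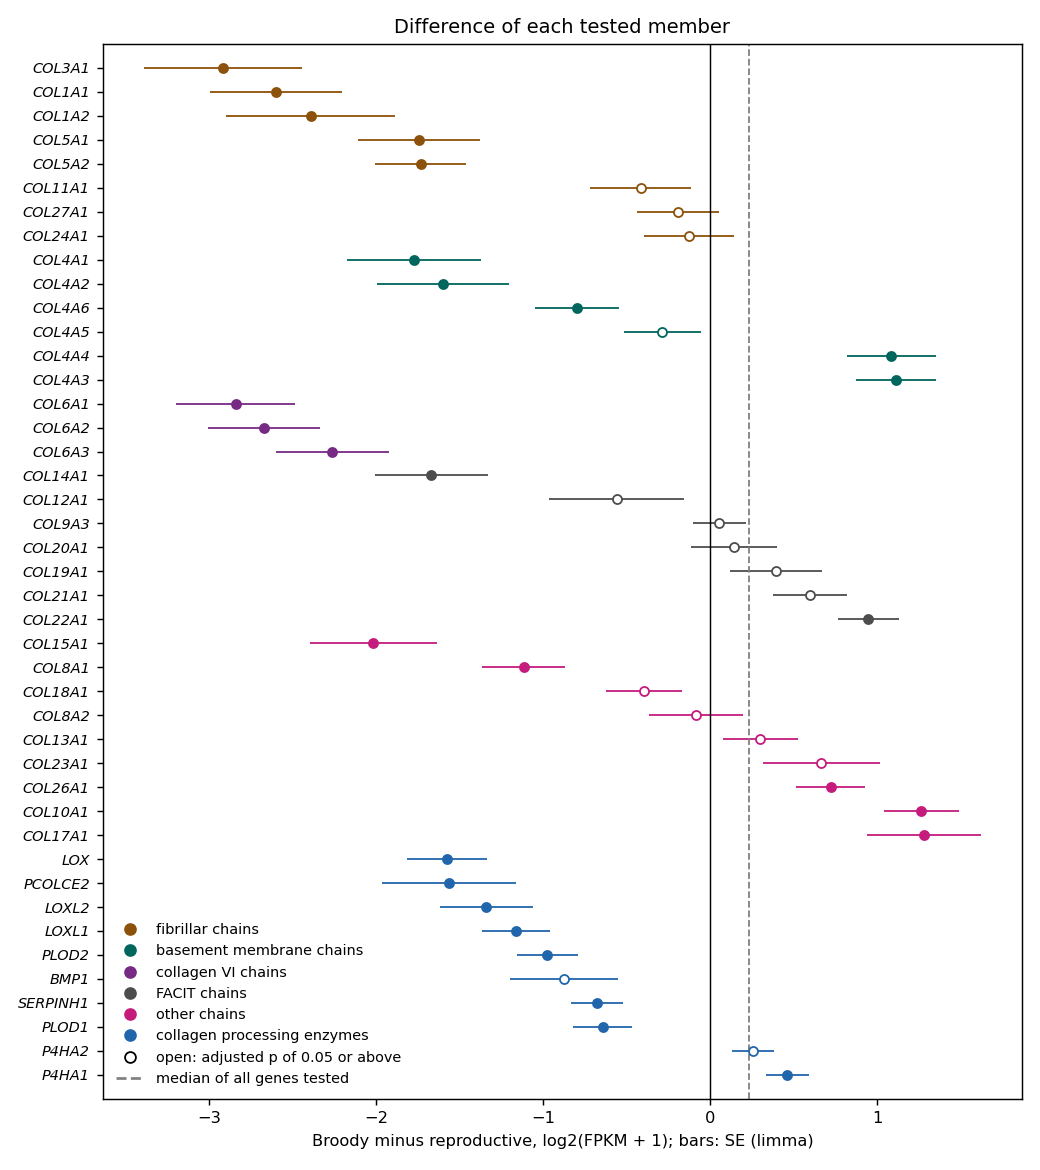
Broody minus reproductive difference on the log2(FPKM + 1) scale for the 43 tested members, with bars for the SE and filled points for an adjusted p under 0.05 by limma. Fibrillar and collagen VI chains reach -2.91 and -2.84, while COL4A3, COL4A4, COL10A1 and COL17A1 lie above 1; the dashed line marks the median of all genes, 0.23.

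Fibrillar chains of collagens I, III and V were lower in the broody ovaries by large margins. COL3A1, the only chain of collagen III, was the most abundant collagen transcript in all 6 libraries. It had 64.4, 131 and 254 FPKM in broody 1 to 3, against 1316, 959 and 743 FPKM in reproductive 1 to 3. Broody 3 was the highest of its group and still lay well below reproductive 3. The reproductive mean was 6.72 times the broody mean, and the difference was -2.91 ± 0.47 (SE; adjusted p = 0.0138 by limma).

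COL1A1 and COL1A2 encode the chains of collagen I, the main collagen of connective tissue. COL1A2 had 23.7, 53.0 and 105 FPKM in broody 1 to 3 and 390, 266 and 194 FPKM in reproductive 1 to 3. COL1A1 had 3.94, 9.78 and 14.1 FPKM in broody 1 to 3 and 58.3, 68.7 and 42.5 FPKM in reproductive 1 to 3. Neither chain overlapped between the groups, and the differences were -2.39 ± 0.51 and -2.60 ± 0.39 (SE; adjusted p = 0.0178 and 0.0128 by limma).

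COL5A1 and COL5A2, chains of collagen V that sits inside collagen I fibrils and limits their width, followed. COL5A2 had 24.8, 30.7 and 47.6 FPKM in broody 1 to 3, against 145, 113 and 86.6 FPKM in reproductive 1 to 3. COL5A1 had 3.40, 6.45 and 9.47 FPKM in broody 1 to 3, against 29.0, 26.5 and 14.5 FPKM in reproductive 1 to 3. The groups did not overlap for either chain. Both differed by almost the same amount, -1.73 for COL5A2 and -1.74 for COL5A1 (adjusted p = 0.0133 and 0.0178 by limma).

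The remaining fibrillar chains had means of at most 7.29 FPKM over the 6 libraries. In broody 1 alone, COL24A1 (6.47 FPKM) lay above COL1A1 (3.94 FPKM) and COL5A1 (3.40 FPKM). COL11A1, a partner of collagen II in cartilage, had 2.41, 3.20 and 6.75 FPKM in broody 1 to 3 and 5.10, 6.50 and 4.76 FPKM in reproductive 1 to 3. Its groups overlapped through broody 3, and it did not pass (difference -0.41, adjusted p = 0.289), though it did without broody 3 (difference -0.76, adjusted p = 0.0441). COL24A1 had 5.17 to 9.03 FPKM in broody and 5.55 to 10.7 FPKM in reproductive libraries, with a difference of -0.13, and COL27A1 (106037083) had a difference of -0.19. COL2A1, the cartilage collagen, had at most 0.268 FPKM in any library, and COL11A2 and the second COL27A1 record (106037043) stayed under the filter too. These 3 genes and COL5A3 were not tested.

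The proportions of the fibrillar chains were compared within each library. The FPKM ratio of COL3A1 to COL1A1 was 16.3, 13.4 and 18.0 in broody 1 to 3 and 22.6, 14 and 17.5 in reproductive 1 to 3. The ratio of COL1A1 to COL1A2 was 0.166, 0.184 and 0.134 in broody 1 to 3 and 0.149, 0.258 and 0.219 in reproductive 1 to 3. Both ratios overlapped between the groups, with differences of -0.16 and -0.34 on the log2 scale (two-sided exact permutation p = 0.50 and 0.30, and 0.50 and 0.375 after adjustment over the 5 ratios tested). A test of 3 libraries against 3 cannot give a p below 0.10. Whether the transcript models are complete was not checked, so the size of a ratio between genes may depend on them. COL1A1 was named by the RefSeq gene table and not by the deposited one.

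Collagen VI, a beaded filament network around cells and next to basement membranes, was lower in the broody ovaries in all 3 of its tested chains. Of all genes, 12% were lower, or 18.8% with median-ratio scaling. COL6A2 had 34.1, 49.7 and 87.5 FPKM in broody 1 to 3, against 358, 414 and 271 FPKM in reproductive 1 to 3. COL6A1 had 11.6, 17.8 and 32.6 FPKM in broody 1 to 3, against 147, 179 and 108 FPKM in reproductive 1 to 3. COL6A3 had 13.2, 22.3 and 32.1 FPKM in broody 1 to 3, against 115, 137 and 74.5 FPKM in reproductive 1 to 3. Reproductive 2 was the highest library for each chain and broody 1 the lowest.

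Mean FPKM in the reproductive group was 7.01, 6.09 and 4.83 times that in the broody group for COL6A1, COL6A2 and COL6A3, with adjusted p of 0.0113, 0.0113 and 0.0126 by limma. COL6A6, a chain that can stand in for the COL6A3 chain, was not tested and had at most 1.48 FPKM. The ratio of COL6A1 to COL6A2 was 0.338, 0.358 and 0.372 in broody 1 to 3 and 0.411, 0.433 and 0.396 in reproductive 1 to 3. The groups did not overlap, and the difference was -0.22 on the log2 scale, with the smallest two-sided exact permutation p this design allows, 0.10 (0.167 after adjustment over the 5 ratios).

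Collagen IV moved in opposite directions by chain. COL4A1, COL4A2 and COL4A6 were lower in the broody ovaries, COL4A3 and COL4A4 were higher, and COL4A5 did not pass. Of the 6 chains 50% were lower and 33.3% higher, where 12% and 29.9% of all genes were. The higher share was thus near that of all genes. With median-ratio scaling the same chains were lower and higher, where 18.8% and 16.7% of all genes were. COL4A3 and COL4A4 then had adjusted p of 0.0215 and 0.0310 by limma. In vertebrates the 6 chains form 3 kinds of trimer: COL4A1 with COL4A2 in nearly all basement membranes, COL4A3 with COL4A4 and COL4A5, as in kidney and lung, and COL4A5 with COL4A6, as around smooth muscle. In the RefSeq gene table of the assembly Taihu_goose_T2T_genome the genes lay as 3 neighbouring pairs, COL4A1 beside COL4A2, COL4A3 beside COL4A4 and COL4A5 beside COL4A6, with no protein-coding gene between.

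COL4A1 had 21.5, 27.7 and 45.0 FPKM in broody 1 to 3, against 156, 128 and 57.7 FPKM in reproductive 1 to 3. COL4A2 had 17.3, 23.4 and 40.0 FPKM in broody 1 to 3, against 112, 96.1 and 45.5 FPKM in reproductive 1 to 3. For both genes reproductive 3 lay only a little above broody 3. The differences were -1.77 ± 0.40 and -1.60 ± 0.40 (SE; adjusted p = 0.0186 and 0.0216 by limma), and COL4A2 missed the threshold without reproductive 1 (adjusted p = 0.0570).

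COL4A3 had 17.5, 17.7 and 14.7 FPKM in broody 1 to 3, against 7.24, 4.87 and 10.1 FPKM in reproductive 1 to 3. COL4A4 had 11.6, 14.7 and 13.3 FPKM in broody 1 to 3, against 5.92, 3.54 and 8.43 FPKM in reproductive 1 to 3. Reproductive 2 was lowest and reproductive 3 highest of its group for both genes, and neither overlapped. The differences were 1.11 ± 0.24 and 1.09 ± 0.26 (SE; adjusted p = 0.0180 and 0.0209 by limma), or 0.88 and 0.86 with median-ratio scaling. COL4A4 missed the threshold without broody 3 (adjusted p = 0.0509).

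COL4A5 had 46.6, 54.3 and 70.3 FPKM in broody 1 to 3 and 90.4, 53.5 and 67.2 FPKM in reproductive 1 to 3, and the groups overlapped (difference -0.29 ± 0.23 SE, adjusted p = 0.335). COL4A6 had 14.8, 19.9 and 30.9 FPKM in broody 1 to 3 and 41.5, 34.9 and 34.9 FPKM in reproductive 1 to 3. Its difference of -0.80 ± 0.25 (SE; adjusted p = 0.0394 by limma) missed the threshold without any 1 of the reproductive libraries (adjusted p = 0.101, 0.0609 and 0.0606 without reproductive 1, 2 and 3), and with no filter (0.0534). COL4A5 ranked 2, 2 and 4 among the collagen chains in broody 1 to 3, and 9, 11 and 7 in reproductive 1 to 3.

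**Figure D2:**
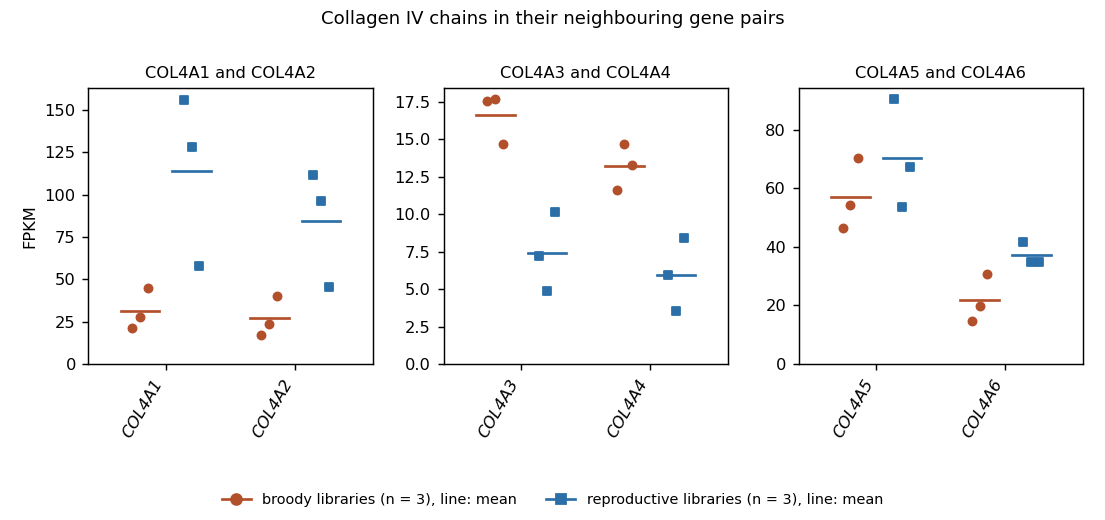
FPKM of the 6 collagen IV chains in their 3 neighbouring gene pairs, on axes that start at 0 and differ between panels. Each point is a library and each line a group mean (3 broody left of 3 reproductive libraries). Broody libraries lie below reproductive ones for COL4A1, COL4A2 and COL4A6, above them for COL4A3 and COL4A4, and overlap with them for COL4A5.

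The ratio of COL4A1 to COL4A2 was 1.24, 1.19 and 1.12 in broody 1 to 3 and 1.39, 1.33 and 1.27 in reproductive 1 to 3, a narrow range around similar levels of the partners. The difference of -0.17 on the log2 scale had a two-sided exact permutation p of 0.10, the smallest possible (0.167 after adjustment). COL4A1 was also set against COL1A1, the chain of collagen I with the lower FPKM in every library. No ratio to COL1A2 was tested. Taken against COL1A2, COL4A1 was lower in broody 3 (45.0 to 105 FPKM) than in reproductive 2 (128 to 266 FPKM), so those groups overlapped. The ratio of COL4A1 to COL1A1 was 5.45, 2.84 and 3.18 in broody 1 to 3 and 2.67, 1.87 and 1.36 in reproductive 1 to 3, without overlap, a difference of 0.95 on the log2 scale with the same exact permutation p, 0.10 (0.167 after adjustment).

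FACIT chains, which attach to the surface of fibrils, did not move together: 1 of 7 tested was lower, 1 was higher and 5 did not pass. Each call was 14.3% of the chains tested, where 12% of all genes were lower and 29.9% higher. COL14A1 had 7.50, 13.7 and 19.5 FPKM in broody 1 to 3, against 46.9, 53.5 and 30.5 FPKM in reproductive 1 to 3, without overlap (difference -1.67 ± 0.34 SE, adjusted p = 0.0173 by limma). COL12A1, its close relative on collagen I fibrils, had 14.9, 33.0 and 33.4 FPKM in broody 1 to 3 and 35.7, 62.7 and 24.4 FPKM in reproductive 1 to 3. Its groups overlapped, and it did not pass (difference -0.56, adjusted p = 0.285).

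COL22A1, a chain of tissue junctions such as that of muscle and tendon, was higher in the broody group at low levels, with 3.15, 2.80 and 2.18 FPKM in broody 1 to 3 and 1.16, 0.996 and 0.621 FPKM in reproductive 1 to 3 (difference 0.95 ± 0.18 SE, adjusted p = 0.0168 by limma). COL21A1 had 2.15, 3.63 and 3.11 FPKM in broody 1 to 3 and 1.75, 1.04 and 2.07 FPKM in reproductive 1 to 3. Its groups did not overlap, yet it missed the threshold (adjusted p = 0.0625). COL19A1 had 12.2, 9.75 and 10.9 FPKM in broody 1 to 3 and 10.1, 4.79 and 10.5 FPKM in reproductive 1 to 3 (difference 0.40, adjusted p = 0.264).

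COL20A1 and COL9A3 had differences of 0.14 and 0.06, both of which changed sign with upper-quartile scaling. COL9A1, a chain of the cartilage FACIT collagen IX, fell short of the filter. It had 1.17, 0.791 and 0.973 FPKM in broody 1 to 3 and 0.619, 0.181 and 0.237 FPKM in reproductive 1 to 3, and with no filter it passed (difference 0.56, adjusted p = 0.0308). COL9A2 had at most 0.0729 FPKM in any library.

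Among the other chains 2 of 9 tested were lower and 3 higher (22.2% and 33.3%, against 12% and 29.9% of all genes), so the higher share was near that of all genes. With median-ratio scaling COL10A1 and COL17A1 stayed higher and COL26A1 did not pass, where 16.7% of all genes were higher. COL15A1, a proteoglycan collagen that links basement membranes to the fibrils beneath, had 2.72, 3.50 and 7.97 FPKM in broody 1 to 3, against 20.4, 30.03 and 14 FPKM in reproductive 1 to 3 (difference -2.02 ± 0.38 SE, adjusted p = 0.0166 by limma). Its relative COL18A1, the source of endostatin, had 0.606 to 1.71 FPKM in broody and 1.31 to 1.98 FPKM in reproductive libraries and did not pass (difference -0.40, adjusted p = 0.186). COL8A1, a short chain of vessel walls, had 2.11, 1.09 and 2.17 FPKM in broody 1 to 3, against 4.36, 6.86 and 3.99 FPKM in reproductive 1 to 3 (difference -1.12, adjusted p = 0.0183). Its partner COL8A2 did not pass (difference -0.08, adjusted p = 0.823).

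The 3 higher chains were not abundant. COL17A1, a transmembrane collagen of epithelial hemidesmosomes, had 6.11, 5.74 and 7.56 FPKM in broody 1 to 3, against 3.10, 0.718 and 3.08 FPKM in reproductive 1 to 3. Reproductive 2 was far below the rest, and the difference of 1.28 ± 0.34 (SE; adjusted p = 0.0251 by limma) missed the threshold without broody 3 (adjusted p = 0.0675). COL26A1, a chain known from mouse testis and ovary, had 5.19, 7.43 and 7.45 FPKM in broody 1 to 3, against 3.57, 2.84 and 4.57 FPKM in reproductive 1 to 3. Its difference of 0.72 did not hold with median-ratio or upper-quartile scaling (adjusted p = 0.0678 and 0.0736) and without broody 3, reproductive 1 or reproductive 2 (0.0819, 0.0652 and 0.0641).

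COL10A1, the collagen of hypertrophic cartilage, had 2.88, 2.17 and 1.49 FPKM in broody 1 to 3, against 0.288, 0.579 and 0.0864 FPKM in reproductive 1 to 3. The groups did not overlap, but the filter had set its direction. Cartilage and bone markers summed to 1.81 to 3.10 FPKM in broody libraries and 1.78 to 3.64 FPKM in reproductive libraries, with 2 tested. SOX9 passed the filter through the broody libraries alone, with 1.31 to 1.54 FPKM against 0.501 to 0.843 FPKM in reproductive libraries, and its adjusted p of 0.0327 became 0.0696 with median-ratio scaling. COL23A1, a transmembrane chain, had 4.02 to 4.31 FPKM in broody and 0.946 to 4.61 FPKM in reproductive libraries. It did not pass (adjusted p = 0.155), but did without reproductive 3 (difference 1.06, adjusted p = 0.0173). COL13A1 did not pass, and COL7A1, the anchoring fibril chain of skin, COL25A1 and COL28A1 were not tested. The 12 untested members reached at most 1.48 FPKM in any library.

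The summed FPKM of all chains was 391, 585 and 927 in broody 1 to 3, against 3129, 2675 and 1885 in reproductive 1 to 3, and its make-up differed. Fibrillar chains took 33.6, 41.2 and 48.6% of it in broody 1 to 3, against 62.5, 54.2 and 58.3% in reproductive 1 to 3. COL3A1 alone took 16.5, 22.3 and 27.4% in broody 1 to 3, against 42.1, 35.8 and 39.4% in reproductive 1 to 3. The gap in the fibrillar share thus lay largely with this gene. Shares of a whole depend on each other, so a larger share of COL3A1 lowers those of the other classes. Collagen VI took 15.1 to 16.4% in the broody group and 19.9 to 27.3% in the reproductive group. Basement membrane chains took 33.0, 26.9 and 23.1% in broody 1 to 3, against 13.2, 12 and 11.9% in reproductive 1 to 3, while their summed FPKM was lower in the broody group, 129 to 214 against 224 to 413 in the reproductive group. FACIT chains took 7.81 to 11.4% in the broody group and 3.14 to 4.67% in the reproductive group, and their summed FPKM overlapped between the groups (43.6 to 72.4 in broody libraries, 71.8 to 125 in reproductive ones).

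**Figure D3:**
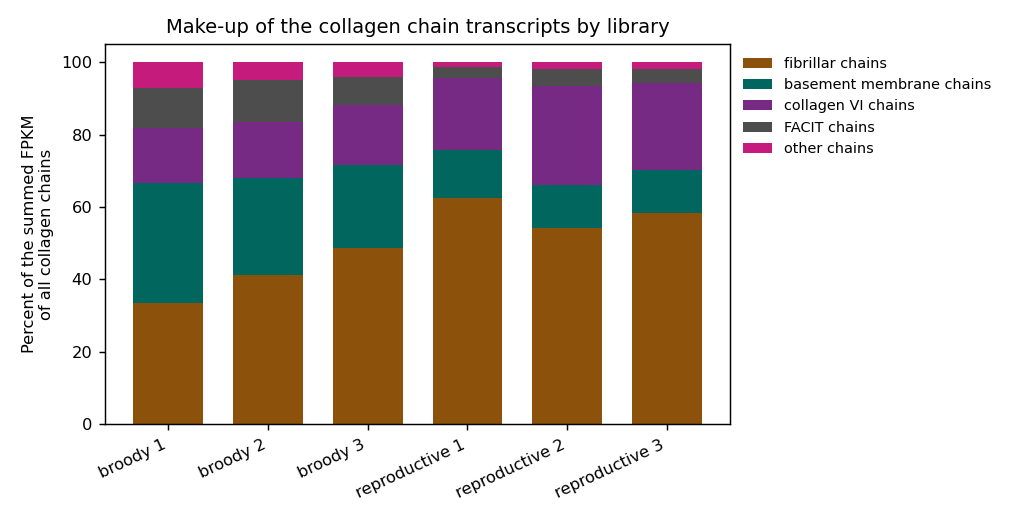
Share of each class in the summed FPKM of all collagen chains, in percent, for each of the 3 broody and 3 reproductive libraries. Fibrillar chains hold 33.6 to 48.6% in the broody group and 54.2 to 62.5% in the reproductive group, and basement membrane chains 23.1 to 33.0% and 11.9 to 13.2%.

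Of the enzymes and helpers, 7 of 10 tested were lower in the broody ovaries, 1 was higher and 2 did not pass. Of all genes, 12% were lower and 29.9% higher. Prolyl hydroxylases stabilise the helix. P4HA1, a catalytic subunit, had 39.9, 43.7 and 46.8 FPKM in broody 1 to 3, against 31.2, 29.3 and 33.2 FPKM in reproductive 1 to 3. The groups did not overlap. The difference of 0.46 ± 0.13 (SE; adjusted p = 0.0268 by limma) missed the threshold with median-ratio scaling (0.21, adjusted p = 0.173), with upper-quartile and quantile scaling (adjusted p = 0.198 and 0.214), with the replicate block (0.0711), and without broody 3 or reproductive 1 (0.0809 and 0.0549). P4HA2, a second catalytic subunit, had 54.3, 55.3 and 47.2 FPKM in broody 1 to 3 and 45.2, 41.9 and 43.2 FPKM in reproductive 1 to 3, and did not pass (difference 0.26, adjusted p = 0.129), with a change of sign under upper-quartile and quantile scaling.

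The lysyl hydroxylases prepare lysines for cross-links. PLOD2, which acts on the ends of the chains, had 62.4, 78.7 and 82.1 FPKM in broody 1 to 3, against 176, 144 and 123 FPKM in reproductive 1 to 3 (difference -0.97 ± 0.18 SE, adjusted p = 0.0166 by limma). PLOD1, which acts on the helix, had 22.5, 16.6 and 25.5 FPKM in broody 1 to 3, against 31.8, 36.7 and 32.6 FPKM in reproductive 1 to 3. Its difference of -0.64 missed the threshold without reproductive 1 or reproductive 2 (adjusted p = 0.0514 and 0.0550). SERPINH1, the collagen chaperone of the endoplasmic reticulum, had 68.8, 82.7 and 84.1 FPKM in broody 1 to 3, against 144, 114 and 120 FPKM in reproductive 1 to 3 (difference -0.67 ± 0.16 SE, adjusted p = 0.0191 by limma).

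Outside the cell, PCOLCE2, which speeds the removal of C-propeptides, had 0.506, 0.593 and 1.51 FPKM in broody 1 to 3, against 2.07, 8.22 and 4.49 FPKM in reproductive 1 to 3 (difference -1.56, adjusted p = 0.0229 by limma). BMP1, the C-propeptidase itself, had 0.757, 0.949 and 1.36 FPKM in broody 1 to 3 and 2.03, 5.21 and 1.64 FPKM in reproductive 1 to 3. Its groups did not overlap. It missed the threshold (difference -0.87, adjusted p = 0.0625) but passed without reproductive 3 (adjusted p = 0.0358), whose value was the lowest of its group.

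Lysyl oxidases, which start the cross-links of collagen and elastin, were lower in all 3 members tested, where 12% of all genes were. LOX had 4.90, 6.51 and 9.86 FPKM in broody 1 to 3, against 23.6, 24.8 and 19.1 FPKM in reproductive 1 to 3 (difference -1.58 ± 0.24 SE, adjusted p = 0.0126 by limma). LOXL1, linked to elastic fibres, had 1.51, 1.47 and 2.0 FPKM in broody 1 to 3, against 3.73, 6.48 and 4.87 FPKM in reproductive 1 to 3. LOXL2, linked to collagen IV, had 4.06, 2.97 and 7.09 FPKM in broody 1 to 3, against 15.2, 13.4 and 10.2 FPKM in reproductive 1 to 3. Neither overlapped, and the differences were -1.16 and -1.34 (adjusted p = 0.0154 and 0.0176 by limma). LOXL3 and LOXL4 were not tested.

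**Figure D4:**
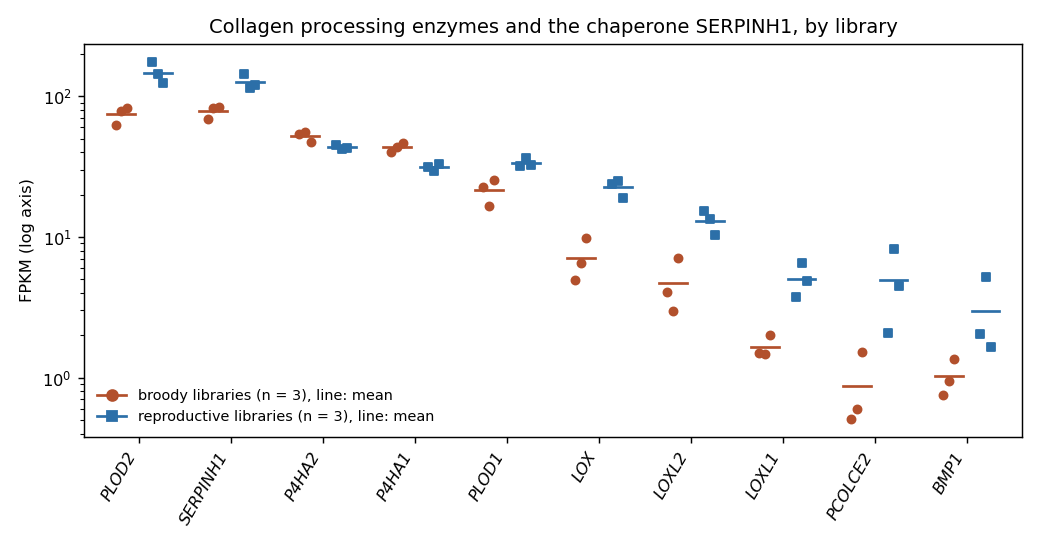
FPKM on a log axis of the 10 tested collagen enzymes and helpers. Each point is a library and each line a group mean, with 3 broody libraries left of 3 reproductive libraries. All broody libraries lie below the reproductive ones except for P4HA1 and P4HA2, where they lie above.

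Several members had more than 1 transcript, and the share of each could shift between libraries of the same group. The leading PLOD1 transcript held 98.8 and 57.9% of the gene's FPKM in broody 1 and 3 but 0.0% in broody 2, against 99.4 to 99.7% in reproductive libraries. The leading LOXL2 transcript held 39.1, 44.0 and 0.0% in broody 1 to 3, against 0.0, 92.5 and 92.7% in reproductive 1 to 3. With the transcript of highest mean used in place of the sum, PLOD1, LOXL2, COL26A1 and COL4A6 lost their calls (adjusted p = 0.165, 0.277, 0.111 and 0.0634). COL4A6 had 1 transcript, so its own values were the same there. For P4HA1 the leading transcript was stable, with 75.8 to 78.5% in the broody group and 77.1 to 78.8% in the reproductive group. COL6A2 had 2 transcripts, and the second held 14.7 to 16% in the broody group and 7.38 to 11.8% in the reproductive group.

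Other genes of collagen synthesis, secretion, turnover and binding were taken from a list. Of 36 listed, 33 were found and 32 tested, with 9 lower and 4 higher in the broody group and a median difference of -0.25. These were 28.1% and 12.5% of the genes tested from the list, where 12% and 29.9% of all genes were lower and higher, with a median of 0.23. With median-ratio scaling, as with upper-quartile scaling, 12 were lower and 1 higher. Of all genes, 18.8% and 16.7% were lower and higher with median-ratio scaling. SPARC, a collagen-binding matrix protein, had 67.8, 103 and 156 FPKM in broody 1 to 3, against 393, 415 and 371 FPKM in reproductive 1 to 3 (difference -1.92, adjusted p = 0.0126 by limma). FN1, fibronectin, had 15.8, 27.6 and 48.4 FPKM in broody 1 to 3, against 159, 175 and 123 FPKM in reproductive 1 to 3 (difference -2.40, adjusted p = 0.0128).

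FKBP10, a prolyl isomerase that helps collagen fold, had 1.12, 1.71 and 2.24 FPKM in broody 1 to 3, against 5.26, 7.20 and 5.16 FPKM in reproductive 1 to 3 (difference -1.36, adjusted p = 0.0132 by limma). POSTN, periostin, had 68.5, 47.9 and 85.8 FPKM in broody 1 to 3, against 259, 144 and 212 FPKM in reproductive 1 to 3 (difference -1.59, adjusted p = 0.0154). The other 5 lower genes were ITGA1, a collagen-binding integrin chain, FKBP7, SERPINF1, the transcription factor CREB3L1 and MRC2, an endocytic collagen receptor. CREB3L1 passed the filter through the reproductive libraries alone, so its count among the lower genes was set by the filter. The differences of the other 4 lay between -1.50 and -1.05.

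The higher genes included P3H2, a prolyl 3-hydroxylase that acts on collagen IV. It had 14.5, 13.9 and 10.6 FPKM in broody 1 to 3, against 5.17, 4.55 and 8.19 FPKM in reproductive 1 to 3, without overlap (difference 1.03 ± 0.23 SE, adjusted p = 0.0182 by limma, and 0.80 with median-ratio scaling, adjusted p = 0.0236). P3H3, P3H4 and CRTAP of the same list went the other way without overlap, with differences of -0.66, -0.47 and -0.36. They did not pass (adjusted p = 0.0714, 0.0721 and 0.0797 by limma), but did with median-ratio scaling (0.0483, 0.0426 and 0.0287). ADAMTS14 and ADAMTS3, which cut N-propeptides, and TMEM38B, an ion channel of the endoplasmic reticulum, had differences of 0.87, 0.68 and 0.40. These 3 missed the threshold with median-ratio scaling (adjusted p = 0.0595, 0.0817 and 0.306). P4HB, the partner subunit of the P4HA chains and named for that reason, had 63.7 to 70.6 FPKM in broody and 56.7 to 105 FPKM in reproductive libraries and did not pass (difference -0.18, adjusted p = 0.534).

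Marker lists of other cell types of the ovary stood as follows, where 12% of all genes were lower and 29.9% higher, or 18.8% and 16.7% with median-ratio scaling. Smooth muscle markers summed to 291, 394 and 916 FPKM in broody 1 to 3, against 4186, 6851 and 3059 FPKM in reproductive 1 to 3, and 6 of 6 tested were lower. Fibroblast and theca stroma markers summed to 187 to 300 FPKM in broody and 448 to 836 FPKM in reproductive libraries, with 2 of 5 lower, or 5 with median-ratio scaling. THY1, counted among the 2, passed the filter through the reproductive libraries alone. DCN, the other, made up most of the stroma sum, with 158 to 254 FPKM in broody and 403 to 747 FPKM in reproductive libraries. The order of that sum is thus largely that of DCN. PDGFRA and PDGFRB overlapped between the groups, while TCF21 did not. Endothelial markers summed to 85.5 to 105 FPKM and 157 to 206 FPKM, with 4 of 6 lower and 1, EGFL7, higher (adjusted p = 0.0448 by limma, and 0.202 with median-ratio scaling). Macrophage markers summed to 35.9 to 68.0 FPKM and 151 to 205 FPKM, with 6 of 6 lower. No marker found was at 0 in every library. The part of these cells in the collagen differences was not tested.

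Library by library, all 21 lower members were highest in broody 3 within the broody group, and 17 were lowest in broody 1. In that group the smooth muscle, stroma and endothelial sums were lowest in broody 1, the macrophage sum was lowest in broody 2, and all 4 sums were highest in broody 3. Among the reproductive libraries 16 of the 21 were lowest in reproductive 3, which had the lowest smooth muscle and endothelial sums, while the stroma and macrophage sums were lowest in reproductive 1. All 4 sums were highest in reproductive 2. The highest was reproductive 1 for 10 members, including COL3A1, COL1A2 and the collagen IV chains, and reproductive 2 for 11, including COL1A1 and the collagen VI chains. The 7 higher members had no such common order. In the reproductive group 5 of them were lowest in reproductive 2, which also had the lowest oocyte and granulosa sums. These orders were not counted over all genes, so whether they are particular to the collagen members was not tested.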

How the data were processed

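The authors deposited FPKM for 33089 transcripts in 6 ovary libraries. Per the submitters' processing notes the tools were HISAT2 and StringTie, with no version. Genome build, annotation and strandedness: not given in the sources used here. FPKM carry no read counts, so the depth is unknown, and overlapping antisense genes cannot be told apart. Transcripts were summed to 14696 genes. Of the members, 45 were named by the deposited table and 10 by the RefSeq gene table of the assembly Taihu_goose_T2T_genome, used for names and neighbours only. Genes with at least 1 FPKM in 3 of the 6 libraries (11377) were fitted as log2(FPKM + 1) with limma 3.58.1 in R 4.3.3 (lmFit, eBayes with a mean-variance trend, no covariate). This scale understates changes of low genes. P-values are two-sided and Benjamini-Hochberg adjusted over all genes tested. The script was tested on simulated data. Ratios of chains were compared by exact permutation tests.

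Members, classes and lists were chosen with earlier results of these data known. In each class the 4 members with the highest mean, that with the largest difference and those called against most of their class were to be given by library, and of the other collagen genes the 4 with the smallest p and those called in the minority direction. Further genes were named after their values were seen. Alternatives covered pseudocount, filter, scaling, fit, replicate block, transcript choice and each library left out.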

Additional observations from a re-analysis of the deposited data

How the results depend on the processing

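No called member changed sign under any alternative run. Median-ratio scaling gave 2136 genes lower and 1897 higher (47.0% of calls higher, against 71.3%), upper-quartile scaling 2189 and 1776 (44.8%), and quantile normalization 2198 higher with 1937 lower (53.2%). The replicate block gave 2225 genes higher and the transcript of highest mean 2180. With at least 1 FPKM in all 6 libraries, 33 members were tested. Of these, 20 were lower and 4 higher, with a median difference of -0.97, where 1221 and 3111 of 10313 genes were lower and higher. The called members COL10A1, COL17A1, COL22A1 and PCOLCE2 were not tested under this filter. The higher genes among the other collagen genes numbered 1 with median-ratio scaling, 1 with upper-quartile scaling, 2 with quantile normalization, 2 with no filter and 2 with the transcript of highest mean.

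With each library left out in turn, members lower in broody were 0 to 22 and higher 0 to 8. The lower calls were 0 to 6 for fibrillar, 0 to 3 for basement membrane, 0 to 3 for collagen VI, 0 to 1 for FACIT and 0 to 2 for other chains, and 0 to 8 for enzymes. Other collagen genes had 0 to 11 lower and 0 to 5 higher, and all genes 1 to 1225 lower and 0 to 3765 higher. Every 0 came without broody 1 or broody 2. The basement membrane count was 1 without reproductive 1. The log2 ratio of COL3A1 to COL1A1 ran from -0.333 to 0.0142, the positive value without reproductive 1.

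Differences of genes that had not passed changed sign as follows. COL20A1 was -0.00694 with upper-quartile scaling and -0.0106 with the transcript of highest mean, and ran from -0.0307 to 0.376 with each library left out. COL9A3 was -0.0678 with median-ratio scaling, -0.0741 with upper-quartile scaling and -0.0298 with quantile normalization, and ran from -0.00753 to 0.138. P4HA2 was -0.00728, -0.00317 and -0.0737 with upper-quartile scaling, quantile normalization and the transcript of highest mean. With each library left out, COL24A1 ran from -0.314 to 0.111, COL8A2 from -0.316 to 0.135 and P4HB from -0.376 to 0.065. The causes were not tested.

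Nothing in the labels says that replicate numbers pair the libraries. Deviations of same-numbered libraries from their group means correlated at 0.11, -0.158 and -0.203 across genes, and those of differently numbered libraries between -0.177 and 0.291. Deviations from a mean of 3 libraries depend on each other, so these values cannot decide whether the numbers pair the libraries. With the replicate block, 18 of 43 members were lower and 6 higher, where 948 and 2225 of all 11377 genes were. COL4A6, P4HA1, PLOD1 and SERPINH1 then missed the threshold (adjusted p = 0.0648, 0.0711, 0.0603 and 0.0547). The differences of the log2 ratios were unchanged by the block, since each number occurs once in each group, but their exact permutation p was not. It went from 0.10 to 0.25, the smallest the paired test allows, for COL4A1 to COL4A2, COL6A1 to COL6A2 and COL4A1 to COL1A1. For COL1A1 to COL1A2 it went from 0.30 to 0.50, and for COL3A1 to COL1A1 it stayed at 0.50.

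Sequencing depth is unknown, and members under 1 FPKM were described by their values only.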

Other observations

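Further within-library ratios were looked at after the values were seen, and have no test. COL4A3 stood at 0.815, 0.638 and 0.327 times the FPKM of COL4A1 in broody 1 to 3, against 0.0464, 0.0380 and 0.176 times in reproductive 1 to 3. Within the gene pairs, COL4A3 to COL4A4 was 1.51, 1.20 and 1.11 in broody 1 to 3 and 1.22, 1.37 and 1.20 in reproductive 1 to 3, with overlap, and COL4A5 to COL4A6 was 3.16, 2.73 and 2.28 in broody 1 to 3 and 2.18, 1.53 and 1.92 in reproductive 1 to 3, without overlap. P4HA1 stood at 0.639, 0.556 and 0.571 times the FPKM of PLOD2 in broody 1 to 3, against 0.178, 0.204 and 0.269 times in reproductive 1 to 3. Such ratios do not move with the scaling of a library.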
